A study of Mus musculus with 8 samples.

Results

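This report describes the genes of glycolysis and the pentose phosphate pathway in mouse prostate tissue, 33 genes chosen by symbol from the 27036 genes of the count table. They are 4 transporters of glucose and lactate, 3 hexokinases and the isomerase Gpi1, 3 phosphofructokinases, 4 enzymes that set the level of fructose 2,6-bisphosphate, 8 enzymes of lower glycolysis, 2 lactate dehydrogenases, 4 pyruvate dehydrogenase kinases and 4 enzymes of the pentose phosphate pathway. Of these, 32 passed the filter on low counts among 14034 tested genes, and Pgam2, the muscle form of phosphoglycerate mutase, did not.

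Bulk RNA sequencing, which averages over all cells of a piece of tissue, was done after removal of ribosomal RNA on 8 libraries from 8 animals. WT comprised 3 normal prostates of sex- and age-matched mice that the study calls wild type and describes, for these libraries, as R26 mTmG/+:Osr1 Cre/+, so that they carry Osr1-Cre and the mTmG reporter but no transgene. PIN comprised 3 prostates with prostatic intraepithelial neoplasia, a precursor lesion, and PCa comprised 2 prostate cancer tissues, and both came from hARtg-Osr1Cre mice, in which Osr1-Cre switches on a human androgen receptor transgene at Rosa26. These mice, R26 mTmG/hAR:Osr1 Cre/+, share Osr1-Cre and the reporter with the controls. PIN and PCa pieces were picked under the microscope for being mostly atypical or tumor cells. The hARtg mice have a mixed C57BL/6 and 129S1/SvImJ background, no treatment is given in the labels, and the ages of these animals are not given in the sources used here. The transgene has no row in the count table, so it gives no check of the labels. Each library averages its tissue, so fewer cells of a type and less RNA per cell cannot be told apart.

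Glycolysis splits glucose into pyruvate and gains a little ATP, and the pentose phosphate pathway draws on the same glucose 6-phosphate to make NADPH and ribose for nucleotides. Many tumors take up glucose and release lactate even where oxygen is present, while the normal prostate epithelium is known for secreting citrate instead of burning it. Most steps have several isozymes encoded by separate genes, which differ in tissue and in how they are regulated.

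Total counts per library ran from 21751803 to 29730420. Levels are given as CPM, counts scaled to a library size of 1e+06 and corrected by the trimmed mean of M-values (TMM), and levels of different genes are compared as TPM, which also divides by exon length. WT 1 stood apart from the other WT libraries: its 6 seminal vesicle markers summed to 15633 CPM, against 0.633 in WT 2 and 0.767 in WT 3, and its 5 adipocyte markers to 236 CPM, against 0 and 3.03. PCa 1 and PCa 2 also differed, with 3833 and 881 CPM of seminal vesicle markers, 443 and 42.9 CPM over 10 leukocyte markers, and 603 and 27.4 CPM over 4 basal markers. Both PCa libraries held 38.7 to 59.9 CPM over 8 smooth muscle markers and 2169 to 2235 CPM over 7 luminal markers, against 2072 to 5992 and 44389 to 87982 CPM in WT and PIN, while 5 cycling markers summed to 418 and 514 CPM against 50.8 to 110. The luminal sum does not speak for each marker. By the edgeR test described below, 2 of the 7 passed as lower in PCa against WT and 2 against PIN, while 1 and 3 had positive log2 fold changes. The library numbers in the labels form 3 series, with WT 1 in one, WT 2 and WT 3 in another and all PIN and PCa libraries in the last. Should the series mark batches, the effect of a batch and that of the disease cannot be told apart where WT is the reference.

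Of the members, Pfkl, the liver-type subunit of phosphofructokinase, and Slc16a1, the lactate and pyruvate transporter MCT1, rose in PCa over WT, and Pfkl also rose over PIN. In the same tissues, the level of Hk2 was 7.04-fold that of WT and the level of the lactate exporter Slc16a3 5.62-fold, but neither passed. The glucose transporter Slc2a1 and the muscle-type Pfkm lay below the WT range in both tumors. Ldha and Ldhb, which interconvert pyruvate and lactate, were low in PCa 1 and high in PCa 2. No member passed in PIN.

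Calls come from the quasi-likelihood test of edgeR, with p-values adjusted over all tested genes by the method of Benjamini and Hochberg, and needed an adjusted p below 0.05 and more than a change of 1 on the log2 scale. In PCa against WT, 2 of the 32 tested members were called, both higher, which is 6.25% of them, while 8.54% of all tested genes were called with 4.35% higher and 4.18% lower. In PCa against PIN, 1 of 32 was called, which is 3.12%, and it was higher, while 5.72% of all tested genes were called, 2.55% higher and 3.17% lower. In PIN against WT, 0 of 32 were called by edgeR's quasi-likelihood test, against 0% of all tested genes, DESeq2 called 0 as well, and 1 member had an unadjusted p under 0.05, against 3.51% of all tested genes. An unadjusted p under 0.05 was reached by 9 members against WT and by 9 against PIN, where 27.5% and 22.8% of all tested genes reached it. Counted in either direction, the members' shares of calls in both comparisons with PCa were not above the background. Among higher calls alone, they were 6.25% beside 4.35% against WT, from 2 members, and 3.12% beside 2.55% against PIN, from 1 member. The median log2 fold change of the tested members was -0.14 between PIN and WT, 0.23 between PCa and WT and 0.38 between PCa and PIN, beside -0.02, 0.01 and 0.07 over all tested genes. The comparisons share libraries and are not independent of each other. Leaving out single libraries moved the count in PCa against WT between 0 and 7 members: it was 1 without WT 2 or without PIN 2, 0 without WT 3, PIN 1 or PIN 3, 7 without PCa 1 and 3 without PCa 2. When 1 tumor is left out, PCa is a single library that is assumed to vary like WT and PIN, so that such a value describes the remaining tumor and gives no support for a difference in PCa. In PCa against PIN it was 3 without WT 2, 0 without WT 3 or any 1 PIN library, 8 without PCa 1 and 5 without PCa 2.

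**Figure D1:**
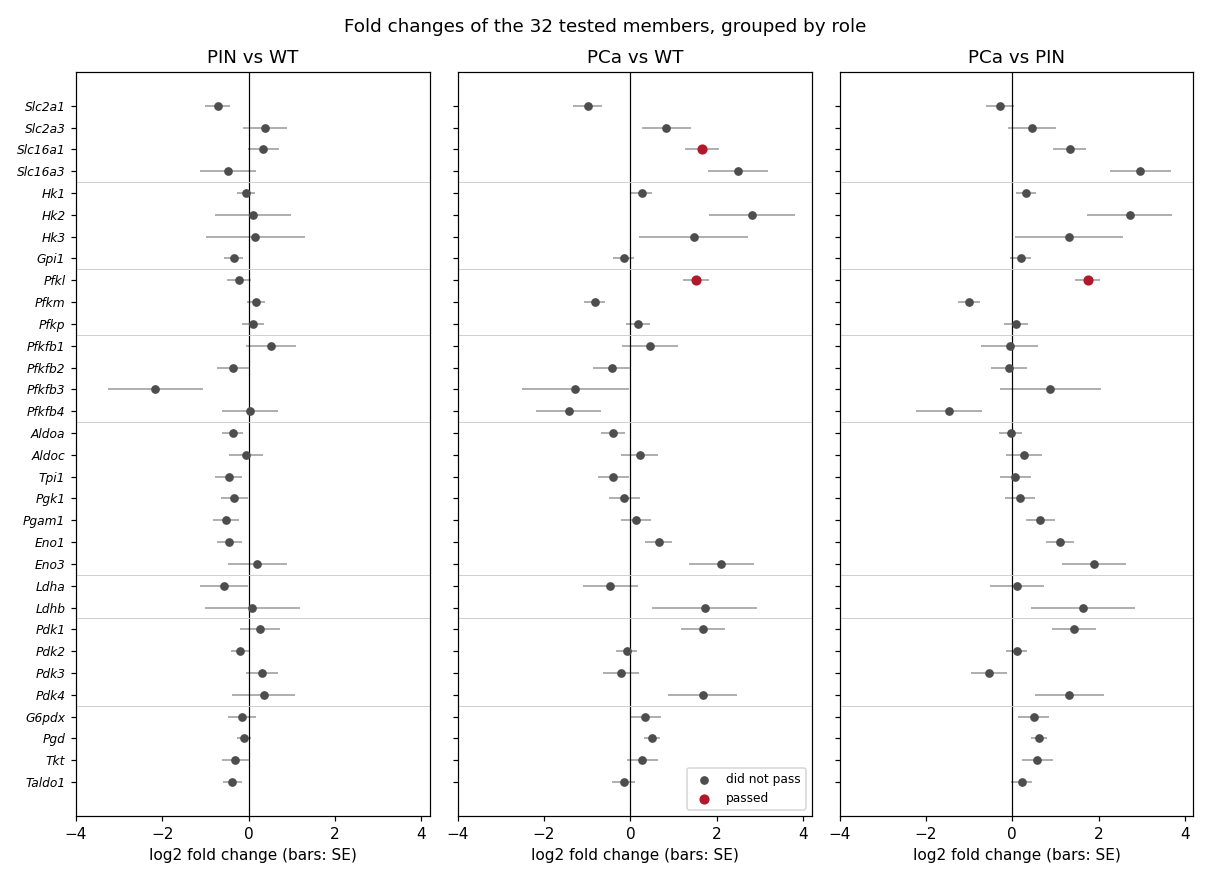
Log2 fold change of each of the 32 tested members (x axis) for PIN over WT, PCa over WT and PCa over PIN, with bars for the standard error and grey lines between the roles. Red points mark the calls, Slc16a1 and Pfkl over WT and Pfkl over PIN, and members with larger fold changes, such as Hk2 and Slc16a3, have wider bars.

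The 4 transporters did not share a direction. Slc2a1, or GLUT1, brings glucose into the cell across the plasma membrane. Its level was 50.3, 75.3 and 38.8 CPM in WT 1, 2 and 3, 30.9, 27.3 and 41.9 CPM in PIN 1, 2 and 3, and 30.03 and 24.98 CPM in PCa 1 and 2. Both tumors lay below every WT library and within or below the PIN range. The log2 fold change in PCa against WT was -0.99 (SE 0.34, adjusted p = 0.105), and in PIN against WT -0.72 (SE 0.29, adjusted p = 1). Slc2a3, or GLUT3, lay between 1.72 and 5.602 CPM in WT and PIN and at 4.21 and 9.31 CPM in PCa.

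Slc16a1, which moves lactate and pyruvate together with a proton, lies on chr3:104442591-104462385 of mm9 on the plus strand. It was at 9.82, 20.1 and 11.1 CPM in WT 1, 2 and 3, at 23.1, 11.5 and 17.3 CPM in PIN 1, 2 and 3, and at 45.1 and 42.0 CPM in PCa 1 and 2. Both tumors were above every WT and every PIN library and close to each other, and the WT and PIN ranges overlapped. Slc16a1 rose 3.18-fold over WT (log2 fold change 1.67, SE 0.39, adjusted p = 0.0417), and its log2 fold change against PIN was 1.33 (SE 0.39, adjusted p = 0.0931), which DESeq2 called (adjusted p = 0.0225), as did edgeR without WT 2 (0.0498). The call against WT was lost when any 1 library other than WT 2 was left out, with adjusted p from 0.0524 without PIN 2 to 0.127 without WT 3. It was also lost with no filter on low counts (adjusted p = 0.0536) and when only the 2 groups compared were modelled (adjusted p = 0.120).

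Slc16a3, or MCT4, a transporter known for lactate export from glycolytic cells, was scarce. Its level was 1.53, 0.452 and 0.548 CPM in WT 1, 2 and 3, 0.934, 0.378 and 0.489 CPM in PIN 1, 2 and 3, and 5.88 and 3.59 CPM in PCa 1 and 2. Both tumors lay above all 6 other libraries. The log2 fold change was 2.49 against WT (SE 0.70, adjusted p = 0.0688) and 2.97 against PIN (SE 0.71, adjusted p = 0.0533), so that it did not pass. DESeq2 called it in both comparisons, with adjusted p = 0.00817 and 0.00159. Leaving out single libraries moved the log2 fold change against WT between 2.104 without PCa 1 and 3.23 without WT 1, with no call in these. It was called against WT and PIN by edgeR's newer quasi-likelihood method (adjusted p = 0.0491 and 0.0375), and against PIN by limma-trend (0.0481) and without WT 2 (0.0462).

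Among the hexokinases, which commit glucose to metabolism by phosphorylating it, the ubiquitous Hk1 and the inducible Hk2 differed. The level of Hk2 was 22.6, 2.62 and 4.24 CPM in WT 1, 2 and 3, 17.9, 3.33 and 10.3 CPM in PIN 1, 2 and 3, and 91.1 and 47.2 CPM in PCa 1 and 2. Both tumors exceeded every other library, and WT 1 was far above the other WT libraries. The log2 fold change of Hk2 against WT was 2.82 (SE 0.99, adjusted p = 0.115), the largest among the members, and against PIN it was 2.72 (SE 0.98, adjusted p = 0.154). Without WT 1, Hk2 was called at a log2 fold change of 4.33 (adjusted p = 0.0455), and DESeq2 called it with all libraries against WT (adjusted p = 0.0162) and against PIN (0.0269). Hk1 lay between 67.5 and 113 CPM in all 8 libraries, and Hk3, a form known from leukocytes, was at 4.75 CPM in PCa 1 and at 0.181 to 2.07 CPM elsewhere. PCa 1 was also the library with the most leukocyte marker counts, 443 CPM over 10 markers against 42.9 to 162 CPM in the others, with S100a8 or Cd79a at 0 in each WT and PIN library other than WT 1. The part of these cells in the level of Hk3 was not tested.

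Gpi1, which turns glucose 6-phosphate into fructose 6-phosphate, was the most abundant member of this step. It stood at 232, 253 and 215 CPM in WT 1, 2 and 3, at 171, 185 and 193 CPM in PIN 1, 2 and 3, and at 165 and 254 CPM in PCa 1 and 2. The PIN libraries were all below WT, whereas PCa 1 was below and PCa 2 just above the WT range. The log2 fold changes were -0.35 in PIN and -0.15 in PCa against WT, with adjusted p of 1 and 0.719.

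**Figure D2:**
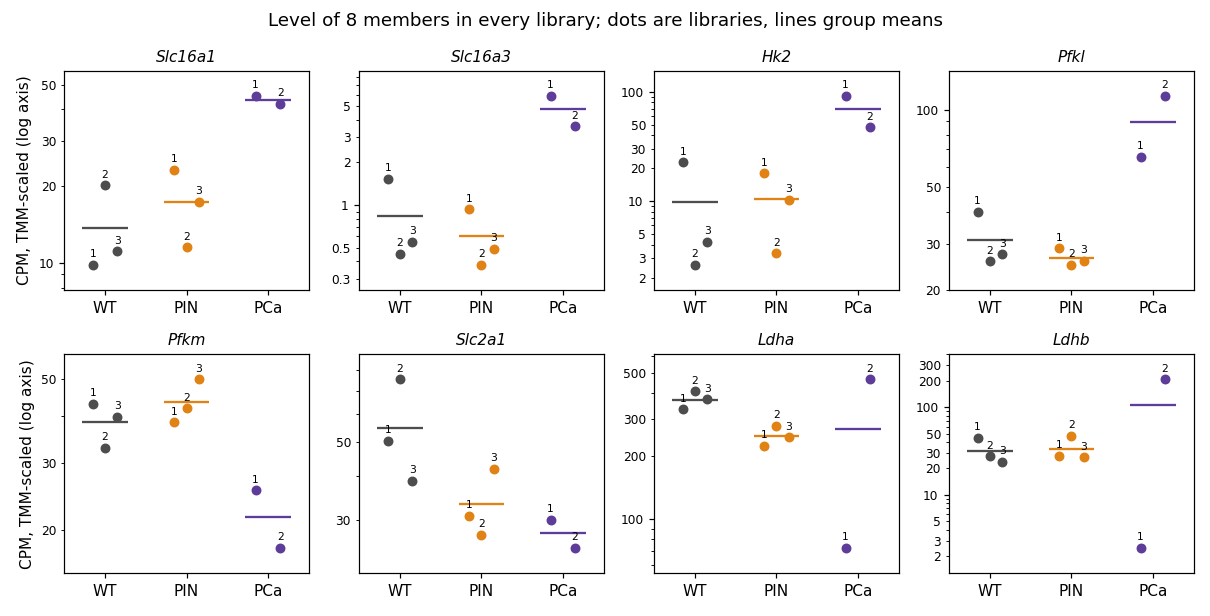
TMM-scaled CPM (log axes) of 8 members in each of the 3 WT, 3 PIN and 2 PCa libraries, where dots are libraries with their replicate numbers and horizontal lines are group means. Slc16a1, Slc16a3, Hk2 and Pfkl were higher in both PCa libraries than in all 6 others and Pfkm lower, while PCa 1 and PCa 2 lay at opposite ends for Ldha and Ldhb.

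Phosphofructokinase makes fructose 1,6-bisphosphate, the step at which flux through glycolysis is classically controlled. Pfkl lies on chr10:77449692-77472828 of mm9 on the minus strand, and its level was 40.2, 25.7 and 27.4 CPM in WT 1, 2 and 3, 28.9, 25.0 and 25.9 CPM in PIN 1, 2 and 3, and 65.5 and 113 CPM in PCa 1 and 2. The tumors lay above all other libraries, and WT and PIN overlapped. Pfkl rose 2.87-fold over WT (log2 fold change 1.52, SE 0.30, adjusted p = 0.0243) and 3.35-fold over PIN (log2 fold change 1.75, SE 0.30, adjusted p = 0.0234). The call against WT was lost without WT 2, WT 3, PIN 1, PIN 3 or PCa 2 (adjusted p = 0.0518, 0.0877, 0.0511, 0.0564 and 0.0603), and with only the 2 groups in the model (adjusted p = 0.114). That against PIN was lost without WT 3, PIN 1, PIN 2 or PIN 3, with adjusted p from 0.05003 to 0.107. The fold change kept its direction in all of these.

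Pfkm, the muscle-type subunit, had the opposite order of levels. It was at 43.0, 32.9 and 39.7 CPM in WT 1, 2 and 3, at 38.5, 41.8 and 49.9 CPM in PIN 1, 2 and 3, and at 25.5 and 18.0 CPM in PCa 1 and 2. Both tumors were below all other libraries, with a log2 fold change of -0.83 against WT (SE 0.25, adjusted p = 0.0792) and -0.998 against PIN (SE 0.25, adjusted p = 0.0596), which did not pass, while limma-trend called it lower against PIN (log2 fold change -1.01, adjusted p = 0.0464). With libraries left out, the log2 fold change against WT ran from -1.09 on PCa 2 alone to -0.58 on PCa 1 alone. Of 8 smooth muscle markers, 7 fell in PCa against WT, where 4.18% of all tested genes were called lower. The 10 skeletal muscle markers did not move one way, with 8.45 and 16.4 CPM in PCa against 55.3 to 264 CPM in WT and PIN in a sum that was mostly Acta1 outside the tumors. Of the 5 tested, Acta1, Ckm and Actn3 fell in PCa against WT, while Mb and Mylpf had log2 fold changes of 3.65 and 0.96 (adjusted p = 0.0728 and 0.302, Mb called by DESeq2) and lay above every WT library in both tumors, Tnnt3 was at 11.6 CPM in PCa 1 and at most 0.592 CPM elsewhere, and Myh4 was at 0 in every library but WT 1. The part of muscle in the level of Pfkm was not tested. Pfkp, the platelet-type subunit, stayed between 13.9 and 24.8 CPM in all libraries.

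As a share of the summed TPM of the 3 phosphofructokinase genes, Pfkl made up 35.3%, 32.3% and 29.6% in WT 1, 2 and 3, 30.8%, 26.7% and 24.0% in PIN 1, 2 and 3, and 58.6% and 75.7% in PCa 1 and 2. Its mean share was 32.4% ± 2.88 (SD, n = 3) in WT and 67.2% ± 12.1 (SD, n = 2) in PCa, and the PCa shares lay above all others. The share of Pfkm was 58.6% ± 3.71 (SD, n = 3) in WT and lay below the WT and PIN ranges in the tumors, at 32.8% and 17.4% in PCa 1 and 2. An exact two-sided permutation test gave p = 0.1 for both shares, which is the smallest p that 3 against 2 libraries can give, and an adjusted p of 0.300 with Benjamini-Hochberg adjustment over 96 share comparisons. The design could therefore not reach 0.05.

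Hexokinase shares in the tumors also stood apart. Hk1 held 68.1%, 94.2% and 93.1% of the family in WT 1, 2 and 3, 76.1% to 88.3% in PIN, and 44.2% and 54.9% in PCa 1 and 2. Hk2 held 27.7%, 5.23% and 5.71% in WT, 5.97% to 22.5% in PIN, and 51.1% and 44.5% in PCa. The PCa shares of both lay outside the WT and PIN ranges, with an exact permutation p of 0.2 against WT and 0.1 against PIN, and adjusted p of 0.468 and 0.300.

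In the monocarboxylate transporters, Slc16a7, or MCT2, made up 89.6% to 94.4% of the family TPM in all WT and PIN libraries. Its level was 147, 155 and 160 CPM in WT 1, 2 and 3, 176 to 249.05 CPM in PIN, and 10.5 and 265 CPM in PCa 1 and 2, so the tumors lay on opposite sides of WT and PIN. The share of Slc16a1 was 5.51% to 10.2% in WT, 5.44% to 7.53% in PIN, 72.8% in PCa 1 and 12.1% in PCa 2. The level of Slc16a1 was nearly equal in both tumors, and the gap in its share came with the level of Slc16a7. An exact permutation test of the share of Slc16a7 in PCa against WT gave p = 0.1, with an adjusted p of 0.300.

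**Figure D3:**
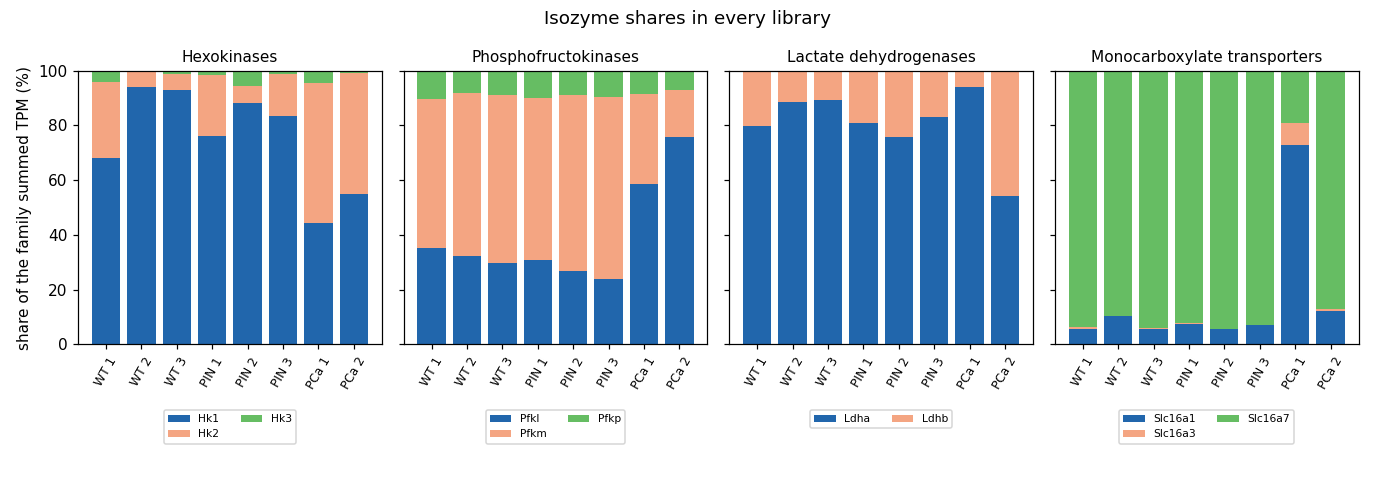
Share of each isozyme in the summed TPM of its family (y axis, %) in every library (x axis), for hexokinases, phosphofructokinases, lactate dehydrogenases and monocarboxylate transporters, where genes under 1% in every library are not drawn. The share of Pfkl was 58.6% and 75.7% in the PCa libraries and 24.0% to 35.3% in the others, and only PCa 1 had a small share of Slc16a7 (19.3%).

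The 4 PFKFB enzymes make and break fructose 2,6-bisphosphate, an activator of phosphofructokinase. Pfkfb2 had the highest mean TPM of them in WT, carried by WT 2, while Pfkfb3 led in WT 1 and Pfkfb4 in WT 3. Pfkfb2 was at 132, 349 and 165 CPM in WT 1, 2 and 3, 150 to 192 CPM in PIN and 133 and 186 CPM in PCa 1 and 2, all groups overlapping. Pfkfb4 was at 65.2, 49.7 and 71.8 CPM in WT 1, 2 and 3, at 59.8, 62.0 and 69.0 CPM in PIN 1, 2 and 3, and at 41.7 and 4.35 CPM in PCa 1 and 2. Both tumors were below WT and PIN, PCa 2 by far the more. The log2 fold change of Pfkfb4 in PCa against WT was -1.43 (SE 0.76, adjusted p = 0.268), and it was -3.83 on PCa 2 alone and -0.56 on PCa 1 alone. Pfkfb3, named here after its values were seen, was at 192 CPM in WT 1 and between 7.78 and 33.6 CPM in the other 7 libraries. WT 1 was also the library with high seminal vesicle and adipocyte markers, whose part in the level of Pfkfb3 was not tested. Pfkfb1 stayed between 0.769 and 2.95 CPM.

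In lower glycolysis, Aldoa, the main aldolase, was the most abundant of all members in WT, with a mean of 388 TPM. Its level was 350, 408 and 315 CPM in WT 1, 2 and 3, 276, 255 and 299 CPM in PIN 1, 2 and 3, and 209 and 333 CPM in PCa 1 and 2. PIN lay below WT throughout and PCa 2 fell within the WT range, with a log2 fold change of -0.40 in PCa against WT (SE 0.27, adjusted p = 0.378). Aldoa held 94.3% to 98.2% of the aldolase TPM in every library. Tpi1 and Pgk1, which carry the 3-carbon intermediates onward, lay between 91.6 and 238 CPM and between 58.0 and 122 CPM over all libraries.

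The enolases form phosphoenolpyruvate. Eno3, known as the muscle form, was at 10.3, 4.03 and 8.15 CPM in WT 1, 2 and 3, at 8.12, 10.5 and 7.22 CPM in PIN 1, 2 and 3, and at 7.36 and 56.8 CPM in PCa 1 and 2. Only PCa 2 stood above WT and PIN. Its log2 fold change against WT was 2.101 (SE 0.75, adjusted p = 0.121), which became 2.93 on PCa 2 alone and -0.01 on PCa 1 alone. Eno1, the widespread form, was at 34.3 to 39.3 CPM in WT, 24.9 to 27.8 CPM in PIN and 35.4 and 79.9 CPM in PCa, so that both tumors exceeded PIN, with a log2 fold change of 1.10 (SE 0.32, adjusted p = 0.0884), which DESeq2 called and edgeR did not. Pgam1 lay between 8.08 and 21.2 CPM, Aldoc between 5.86 and 14.9 CPM, and Pgam2 had at most 0.0493 CPM in any library.

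Ldha, which favours lactate formation, was at 335, 408 and 374 CPM in WT 1, 2 and 3, at 224, 280 and 246 CPM in PIN 1, 2 and 3, and at 72.7 and 465 CPM in PCa 1 and 2. Ldhb, which favours pyruvate formation, was at 44.4, 27.4 and 23.9 CPM in WT 1, 2 and 3, at 27.8, 46.8 and 26.7 CPM in PIN 1, 2 and 3, and at 2.47 and 207 CPM in PCa 1 and 2. For both genes PCa 1 was below every other library and PCa 2 above every one. The log2 fold changes against WT were -0.47 for Ldha (SE 0.63, adjusted p = 0.678) and 1.72 for Ldhb (SE 1.21, adjusted p = 0.402), and neither describes a tumor. On PCa 1 alone the log2 fold change was -2.34 for Ldha and -3.67 for Ldhb, and on PCa 2 alone it was 0.33 and 2.71. Ldha held 93.9% of the lactate dehydrogenase TPM in PCa 1 and 54.1% in PCa 2, beside 79.9% to 89.2% in WT.

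The pyruvate dehydrogenase kinases switch off the entry of pyruvate into the citric acid cycle. Pdk2 was the most abundant of them in WT, with 98.9, 58.5 and 68.5 CPM in WT 1, 2 and 3, 62.8 to 69.5 CPM in PIN, and 68.6 and 73.3 CPM in PCa 1 and 2, all within the WT range. Pdk1 was at 46.7, 31.4 and 37.4 CPM in WT 1, 2 and 3, at 39.0, 50.02 and 48.8 CPM in PIN 1, 2 and 3, and at 200.04 and 47.9 CPM in PCa 1 and 2. PCa 1 was far above all libraries, PCa 2 lay just above WT and within the PIN range. The log2 fold change of Pdk1 against WT was 1.69 (SE 0.51, adjusted p = 0.0805), and it was 2.39 on PCa 1 alone and 0.33 on PCa 2 alone. Pdk4 was at 41.6 CPM in PCa 2 and at 3.76 to 12.96 CPM elsewhere, and Pdk3 at 11.1 CPM in PCa 1 and at 23.3 to 36.1 CPM elsewhere.

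With all 8 libraries, edgeR's quasi-likelihood test called 0 of the 4 pentose phosphate enzymes in the 3 comparisons, and DESeq2 called 0 as well. Only Pgd had an unadjusted p under 0.05, against WT and against PIN, and Tkt was called against PIN on PCa 2 alone. Pgd, which makes NADPH in the oxidative branch, was at 98.0, 109 and 108 CPM in WT 1, 2 and 3, at 99.4, 84.5 and 108 CPM in PIN 1, 2 and 3, and at 137 and 161 CPM in PCa 1 and 2. Both tumors were above all 6 other libraries, by 0.50 on the log2 scale against WT (SE 0.19, adjusted p = 0.132) and 0.62 against PIN (SE 0.19, adjusted p = 0.0995). Taldo1, an enzyme of the non-oxidative branch and the most abundant of the 4, was at 197, 203 and 169 CPM in WT 1, 2 and 3, at 143, 130 and 166 CPM in PIN 1, 2 and 3, and at 210 and 130 CPM in PCa 1 and 2. PIN lay below WT, and the tumors lay on either side of it. G6pdx, which opens the pathway, was at 70.6 to 133 CPM in WT and PIN and 84.3 and 161 CPM in PCa, and Tkt was at 92.5 to 150 CPM and at 92.5 and 222 CPM.

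Comparing ranges, 6 members were higher in both PCa libraries than in every WT library (Slc16a1, Slc16a3, Hk2, Pfkl, Pdk1 and Pgd), where 17.7% of all tested genes were, and 3 were lower (Slc2a1, Pfkm and Pfkfb4), where 19.6% were (37.3% in either direction). Against PIN, 7 were higher, with Pfkfb3 and Eno1 in place of Pdk1, and 2 were lower, where 21.1% and 23.2% of all tested genes were (44.3% in either direction). In PIN against WT, 0 members were higher without overlap, where 6.48% of tested genes were, and 6 were lower, where 6.38% were (12.9% in either direction). These 6 were Gpi1, Aldoa, Pgam1, Eno1, Ldha and Taldo1, with log2 fold changes from -0.57 for Ldha to -0.35 for Gpi1, none of which passed.

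The tumors disagreed with each other over many members. PCa 1 was above the whole WT range for 11 of the 32 tested members and below it for 12, where 32.9% and 32.3% of all tested genes were. PCa 2 was above it for 17 and below it for 4, where 31.9% and 36% were. The median difference from the WT mean was -0.10 for PCa 1 and 0.33 for PCa 2 on the log2 CPM scale, beside -0.000103 and -0.032 over all tested genes. For 7 members (Gpi1, Pgam1, Ldha, Ldhb, Pdk3, Tkt and Taldo1), the tumors lay outside the WT range on opposite sides, which held for 12.2% of all tested genes, and 7 members (Hk3, Pfkfb4, Eno3, Ldha, Ldhb, Pdk1 and Pdk4) differed more than 4-fold between the tumors, which held for 18.5%. The 33 members summed to 2114 TPM in PCa 1 and 3918 TPM in PCa 2, beside 2037 to 2446 TPM in the WT and PIN libraries. TPM carries no TMM correction, and the gene 9530053A07Rik held 13.1% to 22.1% of counts in WT and PIN but at most 0.0114% in PCa. On the TMM-scaled CPM scale the sums were 2082 in PCa 1 and 3176 in PCa 2, beside 2014 to 2871 in WT and PIN.

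**Figure D4:**
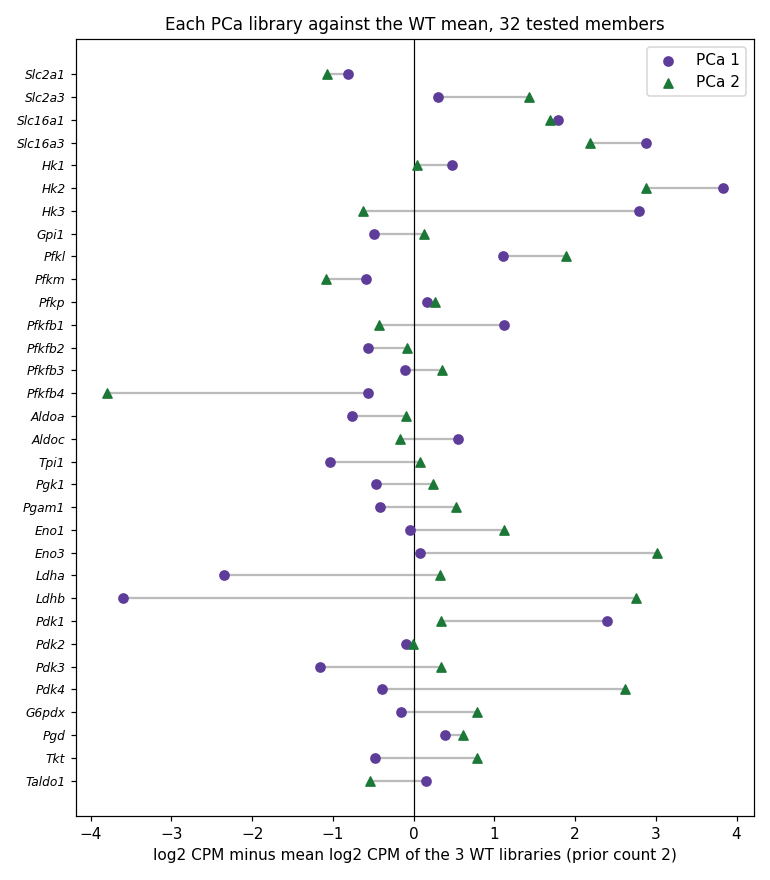
Difference of PCa 1 (circles) and PCa 2 (triangles) from the mean of the 3 WT libraries on the log2 CPM scale (x axis, prior count 2) for the 32 tested members. Slc16a1, Slc16a3, Hk2 and Pfkl lay to the right of 0 in both tumors, while Ldhb lay at -3.60 in PCa 1 and 2.75 in PCa 2.

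The promoters of the called members are shown because these 2 genes were the members that passed, with the letters of general regulatory elements marked. The windows run from 250 bases before to 50 after the annotated start and were taken from RefSeq on GRCm38.p6, with Pfkl at chr10:78009758-78010057 on the minus strand and Slc16a1 at chr3:104638414-104638713 on the plus strand. Capitals mark ACGTG, the core of a hypoxia response element, GCGTG, a variant of it, and CACGTG, the E-box bound by Myc among others, on either strand, where each CACGTG also holds ACGTG.
Pfkl: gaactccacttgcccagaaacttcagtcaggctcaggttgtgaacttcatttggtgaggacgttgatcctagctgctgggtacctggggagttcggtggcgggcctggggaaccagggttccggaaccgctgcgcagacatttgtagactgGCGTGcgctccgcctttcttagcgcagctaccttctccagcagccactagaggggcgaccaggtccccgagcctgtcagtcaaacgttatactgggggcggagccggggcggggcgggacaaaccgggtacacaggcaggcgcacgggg
Slc16a1: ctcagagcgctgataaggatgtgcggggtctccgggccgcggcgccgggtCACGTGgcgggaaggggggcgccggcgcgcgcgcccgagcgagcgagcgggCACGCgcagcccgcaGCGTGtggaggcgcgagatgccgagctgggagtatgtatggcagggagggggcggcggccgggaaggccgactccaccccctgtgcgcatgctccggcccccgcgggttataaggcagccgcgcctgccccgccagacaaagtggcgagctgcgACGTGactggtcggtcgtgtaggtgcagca
The Slc16a1 window held 1 CACGTG, beginning 200 bases before the start, while the Pfkl window held 1 GCGTG and no ACGTG. Windows were found for 32 of the 33 members, 51 windows in all. Of these, 41.2% held ACGTG, 56.9% GCGTG and 11.8% CACGTG, beside 19.6%, 32.4% and 7.15% of all 32851 windows, and the member windows were richer in G and C, with a median of 59.0% against 52.7%. A match is a description of letters only.

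Genes of the same pathways outside the 33 members were counted next. Of 11 tested other genes of glycolysis, Ldhd, which oxidises D-lactate, rose in PCa over WT (log2 fold change 2.47, SE 0.31, adjusted p = 0.00816) and over PIN (2.08, SE 0.31, adjusted p = 0.0166). It was at 14.1, 12.2 and 14.6 CPM in WT 1, 2 and 3, 25.5, 15.8 and 12.3 CPM in PIN 1, 2 and 3, and 78.5 and 72.9 CPM in PCa 1 and 2, with both tumors above all other libraries. Its call over WT held without any 1 library, and that over PIN was lost without PIN 2 or PIN 3 (adjusted p = 0.0682 and 0.0665) and with only the 2 groups in the model (adjusted p = 0.0523). Eno2, the neuronal enolase, fell in PCa against WT (log2 fold change -2.68, SE 0.56, adjusted p = 0.0300), and the other 9 did not pass with edgeR. DESeq2 also called Slc2a4 and Tigar against WT, whose log2 fold changes in edgeR were -2.83 and 1.36. Against PIN it called Eno2 and Slc2a4, at -2.04 and -2.89 in edgeR. The edgeR call of Eno2 against WT was lost without any 1 library other than WT 2 or PCa 1, with adjusted p from 0.0566 without PIN 2 to 0.0704 without WT 3. It was also lost with only the 2 groups in the model (adjusted p = 0.133). Gapdh had 0.790 to 2.06 CPM and Pkm, which makes pyruvate, a log2 fold change of 0.51 in PCa against WT (SE 0.20, adjusted p = 0.150).

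Of 9 tested other pentose phosphate genes, Prps2, which makes phosphoribosyl pyrophosphate for nucleotides, rose in PCa over WT (log2 fold change 2.08, SE 0.40, adjusted p = 0.0239), and the other 8 did not pass with edgeR, while DESeq2 also called H6pd against WT, and Prps2 and Shpk against PIN, whose log2 fold changes in edgeR were -1.72, 1.21 and -1.22. Prps2 lost the call without WT 2, WT 3 or PIN 3 (adjusted p = 0.0530, 0.0863 and 0.0524), without PCa 2, and with only the 2 groups in the model (adjusted p = 0.107). Its log2 fold change against WT ran from 1.34, on PCa 1 alone, to 2.58 with libraries left out. None of 14 genes of pyruvate fate passed in any comparison by edgeR's quasi-likelihood test, with 0 at an unadjusted p under 0.05 in PIN and, in PCa, 2 against WT and 1 against PIN, and DESeq2 called 0 in all 3 comparisons. Among the genes of gluconeogenesis and glycogen, Pygm, the muscle glycogen phosphorylase, fell in PCa against PIN (log2 fold change -3.13, SE 0.68, adjusted p = 0.0410). Its call was lost when any 1 library other than WT 2 was left out, with adjusted p of up to 0.140, and with upper-quartile scaling (adjusted p = 0.0515).

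Of 17 tested hypoxia genes and regulators of glycolysis, Vegfa, a hypoxia-induced growth factor of blood vessels, rose in PCa over PIN (log2 fold change 1.18, SE 0.27, adjusted p = 0.0497) and the others did not pass with edgeR, while DESeq2 also called Ankrd37 against PIN, and Ankrd37, Egln3, Txnip and Vegfa against WT, all with positive log2 fold changes in edgeR. The call was lost without any 1 library other than WT 2 and PCa 1, with adjusted p up to 0.166, and also with relative log expression scaling (adjusted p = 0.0503), no filter on low counts (0.0735), edgeR's own filter (0.0572) and only the 2 groups in the model (0.0869). Hif1a, the oxygen-regulated factor, had a log2 fold change of 0.07 in PCa against WT (SE 0.48, adjusted p = 0.945). Over the 8 libraries, the 3 genes whose log2 CPM was most like that of Pfkl by Pearson correlation were Upk2, Ascc2 and Tbx20, each at r = 0.985, a description over libraries that share the group differences.

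Several members have near copies in the genome, among which reads cannot be placed with certainty. Windows of 50 bases of the longest coding transcript were looked for, as identical sequence, elsewhere in the genome, and 92.9% of those of Pgk1, 91.9% of Pgam1, 72.2% of Eno1, 33.6% of Ldhb, 31.4% of Gpi1, 29.1% of Ldha, 23.6% of Tpi1, 14.8% of Aldoa and 13.1% of Taldo1 were found. The levels of these genes are uncertain for that reason, also where PIN lay below WT, and the same holds for Gapdh, with 85.6%, and Pkm, with 41.4%. For Pfkl, Hk2, Pfkm, Slc16a1 and Slc16a3 the share was at most 0.38%. Exons of Slc2a1, Hk1, Hk3, Gpi1, Pfkp, Pfkfb1, Pfkfb2, Tpi1, G6pdx and Slc16a3 overlap a gene on the opposite strand, and the strand setting of the counting is not given in the sources used here, so reads of the overlap cannot be told apart. Exons of Tkt overlap AC154646.1 on the same strand, where no strand setting would tell the reads apart.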

How the data were processed

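Prostate RNA of 3 WT, 3 PIN and 2 PCa mice was sequenced paired-end after removal of ribosomal RNA. Per the labels and the study's methods, the authors trimmed reads with cutadapt 1.9.1, aligned them to mm9 with HISAT2 2.1.0 and counted them to genes with HTSeq 0.6.1. The deposited values are raw counts per gene without normalization, beside exon lengths, from which TPM was computed here. Groups and replicate numbers come from the labels. Pairing by number was not used because each library comes from its own animal.

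The tests were run with edgeR 4.0.16 under R 4.3.3, on genes above 1 CPM in at least 2 libraries, TMM scaling, a model of all 8 libraries in 3 groups (5 residual degrees of freedom) and the quasi-likelihood F-test. Total counts of 21751803 to 29730420 per library and the 2 PCa libraries limit the precision. The common biological coefficient of variation was 0.489. On simulated counts for PCa against WT with 4-fold changes, 199 of 199 changed genes were called at a coefficient of 0.2 and 75 of 199 at 0.4. Both settings lie below 0.489, and the simulated PCa libraries shared the same expected levels, unlike the 2 tumors. These counts therefore do not measure what could be detected in the data. SE is the absolute log2 fold change divided by the root of F. Shares of summed TPM were compared by exact permutation tests.

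Members called, the largest change and the highest TPM of each role, and genes DESeq2 called in PIN were named with all values, with up to 4 called genes and Gapdh, Pkm, Hif1a and Vegfa from companion lists. The members and lists were chosen with earlier results of these data known. Alternatives were other scalings, DESeq2 1.42.0, limma 3.58.1, other filters and models, a replicate block and leaving out each library; those for companion genes were added after seeing the data. Copies were searched in NCBIM37, the same assembly as mm9, with GENCODE vM1 transcripts. Results for some genes of the companion lists and families are not reported here.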

Additional observations from a re-analysis of the deposited data

How the results depend on the processing

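With 2 PCa libraries that differed from each other, the calls depended on the settings. Members called in PCa against WT numbered 2, and 6 with DESeq2 (with Eno3, Hk2, Pdk1 and Slc16a3 added), 3 with the newer quasi-likelihood method of edgeR (Slc16a3 added), 1 with no filter on low counts, 1 with a replicate block (Hk2) and 0 when only the 2 groups compared were modelled. In PCa against PIN they numbered 1, and 5 with DESeq2 (with Eno1, Hk2, Slc16a1 and Slc16a3 added), 2 with the newer quasi-likelihood method (Slc16a3 added), 3 with limma-trend (Pfkm and Slc16a3 added) and 0 with a replicate block. Leaving out single libraries gave 0 to 7 and 0 to 8 members. No member was called in PIN against WT under any of these settings. All genes called in PCa against WT numbered 1198, and 2487 with DESeq2, 413 with a replicate block, 130 with only the 2 groups, and 347 to 2477 with a library left out. In PCa against PIN they numbered 803, and 1984 with DESeq2, 151 with a replicate block, 388 with only the 2 groups, and 78 to 2251 with a library left out. In PIN against WT, DESeq2 called 39 and the newer quasi-likelihood method 1. The same replicate numbers do not mark the same animals, and libraries of the same number had deviations with a mean correlation of 0.0992 (-0.0562 to 0.284, n = 7), so the block is not a pairing. With the block, the calls of Pfkl against WT and PIN were lost (adjusted p = 0.0941 and 0.0924), as was that of Slc16a1 against WT (0.132), and the companion genes Ldhd, Pygm and Vegfa against PIN had adjusted p of 0.0553, 0.0865 and 0.0634, and Eno2 and Prps2 against WT 0.0760 and 0.0994.

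Of 1002 fold changes of named genes under alternatives, 34 changed sign, 29 of them with a library left out. In PIN against WT, Ldhb turned to -0.14 with a replicate block; leaving out libraries gave ranges of -0.34 to 0.00325 for Pfkl, -0.34 to 0.058 for Pdk2, -0.96 to 0.26 for Slc16a3, -0.55 to 1.61 for Hk2, -0.61 to 0.18 for Pfkfb2, -0.11 to 0.15 for Pfkfb4, -0.10 to 0.50 for Eno3 and -0.23 to 0.40 for Ldhb. In PCa against WT, Ldhb turned to -0.42 with limma-trend, and the ranges were -0.24 to 0.16 for Pdk2, -0.69 to 0.10 for Pfkfb2, -0.48 to 0.13 for Gpi1, -2.34 to 0.33 for Ldha, -0.00896 to 2.93 for Eno3, -3.67 to 2.71 for Ldhb and -0.53 to 0.16 for Taldo1. In PCa against PIN, limma-trend gave -0.44 for Ldha and -0.51 for Ldhb and the replicate block -0.27 for Ldha, and the ranges were -0.32 to 0.16 for Pfkfb2, -0.38 to 0.28 for Aldoa, -0.15 to 0.54 for Taldo1, -0.13 to 0.49 for Gpi1, -0.21 to 2.74 for Eno3, -1.76 to 0.91 for Ldha and -3.75 to 2.63 for Ldhb. Differences in share in PCa against WT ran from -3.34 to 0.145 percentage points for Aldoa, from -31.8 to 8.004 for Ldha and from -0.693 to 36.1 for Pdk1 with a library left out. Shares of summed CPM kept the direction of all 10 families. The cause of these changes was not tested.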
